A study of Mus musculus with 20 samples.

Results

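The genes described here encode the protein subunits of oxidative phosphorylation that are read from nuclear DNA, taken complex by complex in mouse liver. A gene was a member if the platform's annotation gave its probe set a single symbol beginning with Ndufa, Ndufb, Ndufc, Ndufs or Ndufv and a number (complex I), equal to Sdha, Sdhb, Sdhc or Sdhd (complex II), or beginning with Uqcr (complex III), Cox4 to Cox8 (complex IV) or Atp5 (complex V). The rule used no measured value. It found 81 of the 18193 genes named on the array: 35 for complex I, 4 for complex II, 8 for complex III, 17 for complex IV and 17 for complex V. Each gene is given by the brightest of its probe sets over all 20 arrays. Of the 81 members, 72 exceeded the floor of 16 intensity units on at least 5 arrays and were tested, among 8774 tested genes in all.

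Oxidative phosphorylation takes place in the inner mitochondrial membrane. Complexes I and II pass electrons from NADH and succinate to ubiquinone, complex III passes them on to cytochrome c and complex IV to oxygen, and complex V uses the proton gradient built up by complexes I, III and IV to make ATP. In the fasted liver this chain receives electrons mainly from fatty acid oxidation and supplies the ATP for gluconeogenesis and urea synthesis. MCAD, the product of Acadm, is the dehydrogenase of medium-chain fatty acyl-CoA and hands its electrons to ubiquinone through the electron transfer flavoprotein.

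There were 4 groups of 5 male mice, 1 array per mouse: MCAD-/- mice given LPS, wild type mice given LPS, MCAD-/- mice given vehicle and wild type mice given vehicle. LPS, lipopolysaccharide, is an endotoxin of Gram-negative bacteria that sets off an acute-phase response in the liver, and the dose was 100 µg per 20 g body weight. All mice were on a mixed BL6/SV129 background, were 50 to 60 days old and were fasted for 12 h after the injection, so that no group was fed. The sources do not say that the genotypes were littermates, so strain differences near or away from Acadm cannot be told apart from the loss of MCAD. Acadm itself followed the labels in every mouse, at 14.3 to 218 intensity units in MCAD-/- mice with LPS against 1450 to 2375 in wild type mice with LPS, and at 9.03 to 80.2 against 3106 to 4022 with vehicle. The 6 hepatocyte markers, among them albumin and transthyretin, were bright on every array.

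Several wild type arrays stood apart. LPS replicate 4 and vehicle replicate 3 of that genotype had actin 3' to 5' log2 ratios, a sign of RNA quality, of 3.69 and 3.18, against 1.35 to 2.34 on the other arrays. Wild type LPS replicate 2 carried striated muscle transcripts (Acta1 at 309 units, Myl1 at 72.6, Ckm at 26.3 and Tnnt3 at 18.9), and in wild type LPS replicate 5 the fat marker Adipoq read 19.8 units. On every other array each of these markers was under the floor. Counts that lead a comparison are given below with and without these arrays.

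The promoters of 5 members are shown, picked from the genes with large differences. Sdhb, Sdhd and Uqcr11 were among those that fell most with LPS, and Ndufs5 and Cox6b2 were those that differed most between genotypes. Ndufa6 and Ndufb10, which fell more than Uqcr11 in both genotypes, and Ndufb1, which rose, are not shown. Each sequence runs from 250 bases before the annotated start to 50 bases after it, as RefSeq gives it on GRCm38.p6, and capitals mark matches to 4 motifs linked to mitochondrial genes. These were CGCATGCGC (NRF1), CCGGAAG (the ETS family, which holds GABP), TCAAGGTCA (ERR alpha) and AAGATGGC (YY1), each searched on both strands. The NRF1 motif and its reverse complement overlap, and a promoter with both counts once.
Sdhb, chr4:140961021-140961320, plus strand: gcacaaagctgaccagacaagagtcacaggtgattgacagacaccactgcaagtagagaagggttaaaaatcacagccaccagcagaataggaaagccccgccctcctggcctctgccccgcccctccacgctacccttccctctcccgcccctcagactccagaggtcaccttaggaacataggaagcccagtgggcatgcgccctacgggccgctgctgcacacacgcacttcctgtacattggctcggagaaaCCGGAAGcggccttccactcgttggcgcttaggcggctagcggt
Sdhd, chr9:50603800-50604099, minus strand: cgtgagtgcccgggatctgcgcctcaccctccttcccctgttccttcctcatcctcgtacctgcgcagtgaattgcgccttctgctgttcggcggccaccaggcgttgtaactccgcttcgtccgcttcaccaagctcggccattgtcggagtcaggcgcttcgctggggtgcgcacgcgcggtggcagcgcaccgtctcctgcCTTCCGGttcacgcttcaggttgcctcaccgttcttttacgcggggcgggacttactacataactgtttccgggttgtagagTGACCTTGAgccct
Uqcr11, chr10:80406772-80407071, minus strand: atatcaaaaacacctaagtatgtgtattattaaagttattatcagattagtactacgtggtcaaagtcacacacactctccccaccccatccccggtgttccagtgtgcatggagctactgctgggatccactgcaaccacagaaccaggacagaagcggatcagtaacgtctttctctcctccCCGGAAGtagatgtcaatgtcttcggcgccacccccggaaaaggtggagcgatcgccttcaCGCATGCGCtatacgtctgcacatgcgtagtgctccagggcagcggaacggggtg
Ndufs5, chr4:123718137-123718436, minus strand: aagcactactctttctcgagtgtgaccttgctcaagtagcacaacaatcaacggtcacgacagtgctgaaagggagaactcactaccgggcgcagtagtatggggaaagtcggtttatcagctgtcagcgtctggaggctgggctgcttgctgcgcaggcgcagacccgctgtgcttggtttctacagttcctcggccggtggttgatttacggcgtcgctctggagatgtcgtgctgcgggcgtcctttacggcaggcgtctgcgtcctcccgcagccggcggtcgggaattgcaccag
Cox6b2, chr7:4753045-4753344, minus strand: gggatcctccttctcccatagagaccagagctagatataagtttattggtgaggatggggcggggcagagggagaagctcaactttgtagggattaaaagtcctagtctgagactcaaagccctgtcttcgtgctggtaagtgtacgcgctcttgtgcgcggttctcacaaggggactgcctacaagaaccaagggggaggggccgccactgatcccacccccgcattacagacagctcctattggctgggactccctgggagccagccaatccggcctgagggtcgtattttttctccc
Of the 81 members 66 had a promoter entry, and 29 of these (43.9%) held at least 1 of the 4 motifs, against 14.5% of all 27025 genes in the table. The ETS motif was found in 17 members (25.8%, against 9.93% of all genes), the YY1 motif in 9 (13.6% against 3.19%), the NRF1 motif in 7 (10.6% against 1.95%) and the ERR alpha motif in 2, Sdhd and Atp5g3 (3.03% against 0.466%). Sdhd held the ETS and the ERR alpha motif, Uqcr11 the ETS and the NRF1 motif, and Sdhb the ETS motif. The Ndufs5 and Cox6b2 windows held no match to these letters, which says nothing of the factors themselves. Of the genes not shown, the Ndufb1 window held no match either, and Ndufa6 and Ndufb10 were not among the members with a match. The 5 windows therefore do not stand for all members that moved. Members with an ETS match had a median log2 difference with LPS of -0.39 in MCAD-/- and -0.34 in wild type, and those without one -0.46 and -0.38. A match is a string of letters in this window and does not show that a factor binds there.

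The first question was how LPS moved the chain in the fasted MCAD-/- liver. Of the 72 tested subunit genes, 60 fell and 1 rose, against 27.6% of all tested genes lower and 38.1% higher in the same mice. The falls were shared by all 5 complexes: 29 of 33 members of complex I, 4 of 4 of complex II, 7 of 8 of complex III, 7 of 10 of complex IV and 13 of 17 of complex V. The median log2 difference was -0.46 for complex I, -0.64 for complex II, -0.39 for complex III, -0.29 for complex IV and -0.35 for complex V. Over all 72 it was -0.41, while the median over all tested genes was 0.14. In size the falls were modest: 17 exceeded 1.5-fold. In 58 members every MCAD-/- mouse with LPS lay below every MCAD-/- mouse with vehicle, an arrangement seen in that direction in 21.7% of all tested genes.

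Wild type livers gave a like picture under LPS. Here 55 subunit genes fell and 2 rose, where 24.0% of all tested genes were lower and 40.0% higher. The falls covered 26 of 33 members of complex I, 4 of 4 of complex II, 6 of 8 of complex III, 6 of 10 of complex IV and 13 of 17 of complex V. Median log2 differences were -0.39, -0.74, -0.31, -0.28 and -0.31 for complexes I to V, and -0.36 over all 72, with a median of 0.18 over all tested genes. Of the falls 13 exceeded 1.5-fold. The LPS and vehicle groups did not overlap, with LPS lower, in 44 members, against 17.3% of all tested genes. Tests were limma's moderated test with Benjamini-Hochberg adjustment over the 8774 genes, at an adjusted p of 0.05, two-sided.

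These counts moved with the scaling of the arrays. In the deposited values 3344 genes rose and 2424 fell in MCAD-/-, and 3507 rose and 2107 fell in wild type. With each array centred on its median 2833 rose and 2734 fell in MCAD-/-, and 2760 rose and 2662 fell in wild type, and the subunits that fell numbered 64 in MCAD-/- and 63 in wild type. After a further quantile normalization 2907 rose and 2696 fell in MCAD-/-, and 2790 rose and 2625 fell in wild type, and 48 subunits fell in MCAD-/- and 38 in wild type. Without the 2 arrays of high actin ratio, both of wild type, 55 fell in wild type. In MCAD-/- 63 then fell, with its arrays and differences unchanged and only the shared spread per gene estimated anew. Without the 2 wild type arrays with muscle or fat transcripts 48 fell in wild type. Arrays report levels relative to the whole RNA sample, so fewer hepatocytes and less of these transcripts per hepatocyte cannot be told apart. Of 6 hepatocyte markers 5 fell with LPS in each genotype, and their summed level was 74096 to 74744 units in MCAD-/- mice with LPS against 87500 to 94266 with vehicle, and 72205 to 75853 against 86384 to 91075 in wild type. All 3 tested neutrophil markers rose, with summed levels of the 5 markers on the array of 2679 to 3196 units against 25.3 to 194 in MCAD-/- and 1830 to 3887 against 25.7 to 98.8 in wild type, while Mpo and Cxcr2 stayed under the floor in every mouse. Of 5 tested Kupffer cell markers 5 fell in MCAD-/- (summed 220 to 454 units against 1197 to 1632) and 4 in wild type (200 to 459 against 603 to 1118). Of 5 endothelial markers 3 fell and 1 rose in MCAD-/- (478 to 886 units against 1189 to 1633), and 1 fell and 3 rose in wild type (619 to 1085 against 382 to 798). Of 5 stellate cell markers 3 fell and 0 rose in MCAD-/- (1757 to 2203 units against 1897 to 2191), and 1 fell and 2 rose in wild type (683 to 2054 against 1050 to 1836). The part of any of these cell types in the subunit falls was not tested.

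**Figure D1:**
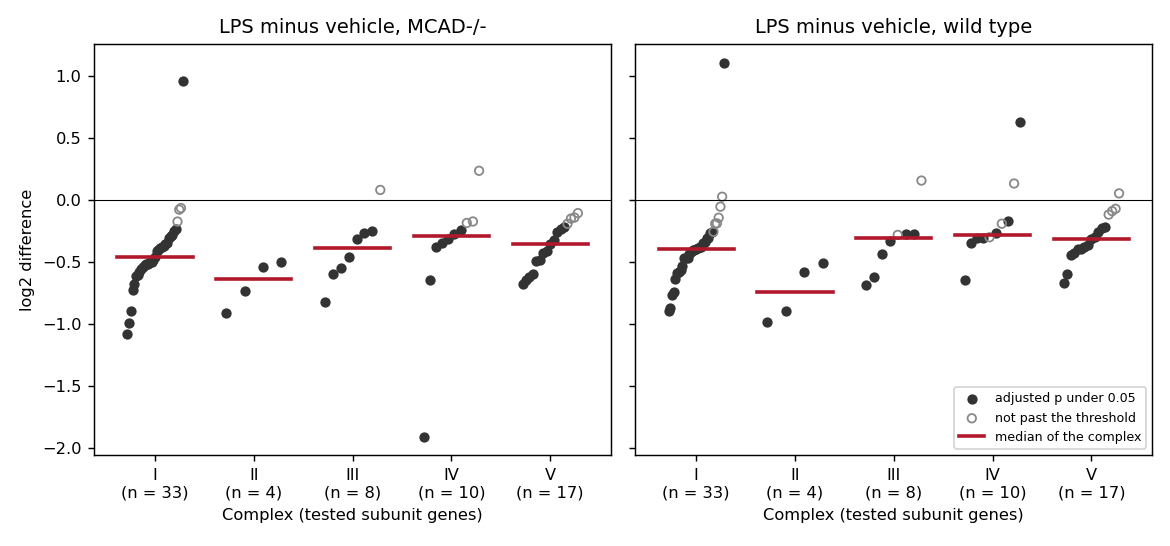
Log2 difference of each tested subunit gene, LPS minus vehicle, by complex, in MCAD-/- (left) and wild type (right) livers; filled points passed an adjusted p of 0.05, open points did not, and red bars are medians per complex. Most points lie below 0 in every complex, the complex II medians are -0.64 and -0.74, and Ndufb1 lies alone near 1.0 in both panels.

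Averaged over the tested members of a complex, the level of each mouse separated LPS from vehicle in every complex and in both genotypes. Complex II stood at 9.85 to 10.10 on the log2 scale in MCAD-/- mice with LPS and at 10.50 to 10.80 with vehicle. Wild type mice had 9.82 to 10.08 with LPS and 10.58 to 10.76 with vehicle. The difference of the group means was -0.67 in MCAD-/- and -0.74 in wild type for complex II, -0.43 and -0.37 for complex I, -0.40 and -0.34 for complex III, and -0.37 and -0.31 for complex V. Complex IV differed by -0.26 in MCAD-/- and by -0.16 in wild type once Cox6b2, described further on, was left out, and by -0.42 and -0.18 with it. In none of these did an LPS mouse reach the level of a vehicle mouse of its genotype. The mean over all tested genes ran the other way, 0.09 higher with LPS in MCAD-/- and 0.17 higher in wild type. These averages describe the members and carry no test of their own.

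**Figure D2:**
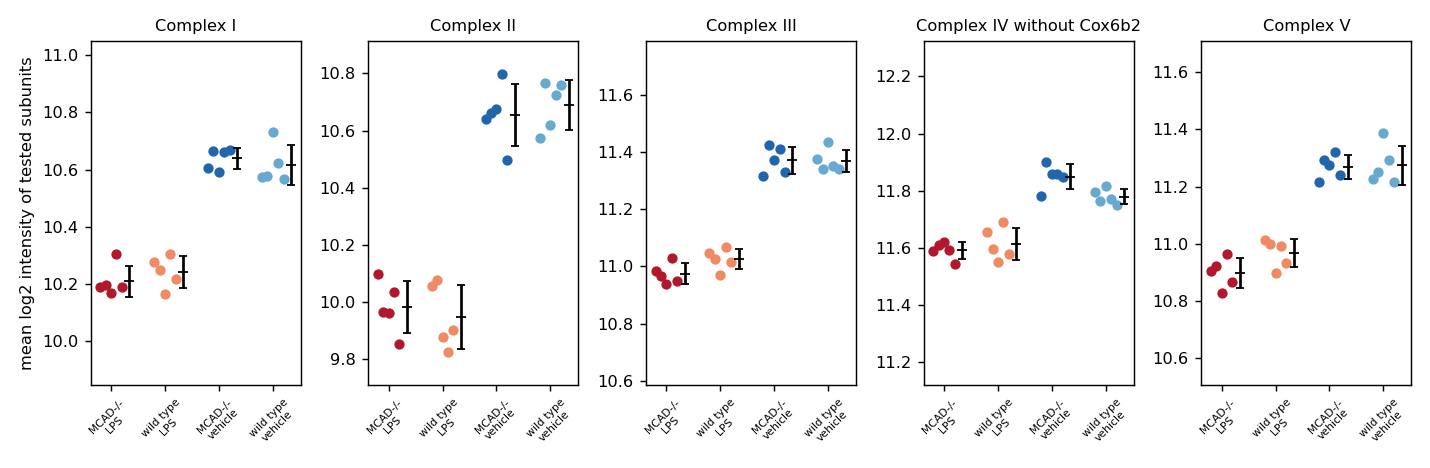
Mean log2 intensity of the tested subunit genes of each complex, 1 point per mouse, for MCAD-/- LPS, wild type LPS, MCAD-/- vehicle and wild type vehicle; bars are the group mean and SD (n = 5), each panel spans the same height, and complex IV is drawn without Cox6b2. In all 5 panels both LPS groups lie below both vehicle groups, and the genotypes overlap within each injection.

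Succinate dehydrogenase, complex II, is the enzyme shared by the citric acid cycle and the chain, and all 4 of its genes fell in both genotypes. Sdhb, the iron-sulphur subunit (chromosome 4), had 1967, 1787, 1786, 2094 and 1854 units in MCAD-/- mice with LPS against 3490, 3730, 3241, 3609 and 3727 with vehicle. In wild type it had 2260, 2198, 2018, 2081 and 2377 units with LPS against 3852, 4021, 4402, 4031 and 3967 with vehicle. The groups lay far apart, with no mouse between them. Its log2 difference was -0.91 ± 0.08 (SE; limma adjusted p = 8.73e-09) in MCAD-/- and -0.89 ± 0.08 (adjusted p = 1.3e-08) in wild type, 1.88-fold and 1.86-fold lower. Sdhd, a membrane anchor (chromosome 9), had 739, 643, 624, 621 and 496 units in MCAD-/- mice with LPS against 1081, 986, 1168, 1227 and 758 with vehicle. Wild type mice had 505, 580, 424, 346 and 382 units with LPS against 811, 922, 788, 889 and 933 with vehicle. Again LPS and vehicle did not overlap, although MCAD-/- vehicle replicate 5 came close to the highest LPS mouse. The log2 differences were -0.73 ± 0.15 (limma adjusted p = 0.000226) and -0.98 ± 0.15 (adjusted p = 1e-05). The other membrane anchor Sdhc changed by -0.54 in MCAD-/- and -0.58 in wild type, and the flavoprotein Sdha by -0.50 and -0.51. Sdha, Sdhc and Sdhd each had a further tested probe set. Those of Sdha and Sdhd fell too, by less for Sdhd (-0.45 in MCAD-/- and -0.48 in wild type). That of Sdhc did not pass in MCAD-/- (-0.45, limma adjusted p = 0.0535 over probe sets) and fell in wild type (-0.88).

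In complex I, which takes electrons from NADH, the accessory subunit Ndufa6 (chromosome 15) fell most in both genotypes. It had 612, 624, 467, 738 and 524 units in MCAD-/- mice with LPS against 1314, 1285, 1128, 1272 and 1213 with vehicle, a 2.12-fold lower level (log2 difference -1.08 ± 0.12, limma adjusted p = 2.07e-07). In wild type it had 829, 863, 664, 786 and 815 units with LPS against 1579, 1278, 1779, 1327 and 1402 with vehicle, 1.85-fold lower (-0.89 ± 0.12, adjusted p = 2.72e-06). Both pairs of groups were separate. Ndufb10, an accessory subunit of the membrane arm, fell 1.98-fold in MCAD-/- (median 937 units with LPS and 1917 with vehicle) and 1.70-fold in wild type (959 and 1730). Ndufs7 and Ndufs8, which hold the iron-sulphur clusters nearest to ubiquinone, changed by -0.89 and -0.68 in MCAD-/- and by -0.59 and -0.64 in wild type. Of the subunits that take up NADH, Ndufv1, the flavin carrier, had 1227, 1236, 1297, 1358 and 1275 units in MCAD-/- mice with LPS against 1949, 2121, 1788, 1922 and 2008 with vehicle. In wild type it had 1294, 1238, 1271, 1702 and 1444 with LPS against 1969, 1619, 1498, 1682 and 1781 with vehicle. The MCAD-/- groups were apart, and the wild type groups overlapped through wild type LPS replicate 4. Its log2 difference was -0.61 ± 0.10 in MCAD-/- and -0.30 ± 0.10 in wild type (limma adjusted p = 1.83e-05 and 0.0109), and the difference between the genotypes' responses did not pass (interaction -0.31, 95% interval -0.60 to -0.02, adjusted p = 0.217). Ndufs1, the largest iron-sulphur subunit, ran from 641 to 745 units in MCAD-/- mice with LPS against 972 to 1136 with vehicle (-0.56). Wild type mice had 407 to 813 units with LPS, the lowest being replicate 4, against 1061 to 1239 with vehicle (-0.87).

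One member of complex I rose. Ndufb1, a small accessory subunit of the membrane arm (chromosome 12), had 52.9, 69.8, 63.8, 52.9 and 59.1 units in MCAD-/- mice with LPS against 32.6, 27.0, 29.0, 26.4 and 39.5 with vehicle. In wild type it had 95.5, 68.3, 69.8, 76.6 and 49.7 units with LPS against 32.8, 27.8, 47.2, 33.0 and 26.6 with vehicle. No LPS mouse reached down to a vehicle mouse of its genotype. The rise was 1.94-fold in MCAD-/- (log2 difference 0.96 ± 0.17, limma adjusted p = 5.95e-05) and 2.15-fold in wild type (1.10 ± 0.17, adjusted p = 1.28e-05). It rested on 1 probe set with a dim signal, under 100 units on every array. Of the other 32 tested members of complex I, 29 fell in MCAD-/- (27.6% of all tested genes did) and 26 in wild type (24.0%). The members that passed in neither were Ndufa1 (-0.17 in MCAD-/- and -0.19 in wild type), Ndufa2 (-0.07 and 0.03) and Ndufs4 (-0.08 and -0.19). A dim further probe set of Ndufs4 fell in both (-0.94 and -1.45, limma adjusted p = 0.0156 and 0.000675 over probe sets). Another tested probe set of Ndufs4 passed in neither.

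Complex III passes electrons from ubiquinol to cytochrome c. By brightest probe sets it fell most in Uqcr11, its smallest accessory subunit (chromosome 10). That ranking depends on the probe set. The brightest of Uqcr10 changed by -0.54 in MCAD-/- and -0.44 in wild type. Dimmer ones of Uqcr10 changed by -1.46 and -0.98 in MCAD-/- and by -0.86 and -0.66 in wild type. Uqcr11 had 1133, 1161, 1086, 1349 and 1156 units in MCAD-/- mice with LPS against 1918, 2261, 2049, 2038 and 2108 with vehicle. In wild type it had 1287, 1315, 1270, 1544 and 1163 against 2196, 1960, 2422, 2013 and 1992. LPS mice were the lower group without overlap, by 1.77-fold in MCAD-/- (-0.82 ± 0.09, limma adjusted p = 2.94e-07) and 1.61-fold in wild type (-0.69 ± 0.09, adjusted p = 2.98e-06). The Rieske iron-sulphur protein Uqcrfs1 had a median of 1866 units in MCAD-/- mice with LPS against 2619 with vehicle (-0.46), and 1899 against 2728 in wild type (-0.62). The core protein Uqcrc1 fell in MCAD-/-, with 835 to 1006 units against 1225 to 1614 (-0.59 ± 0.14, limma adjusted p = 0.000765). In wild type it had 962 to 1324 units with LPS against 1414 to 1532 with vehicle apart from replicate 3, which read 875, and the difference of -0.28 did not pass (adjusted p = 0.0766). Without the 2 arrays of high actin ratio Uqcrc1 fell in wild type too (-0.50, adjusted p = 0.000146). The hinge protein gene Uqcrh passed in neither genotype (0.08 in MCAD-/- and 0.16 in wild type). A dimmer probe set of Uqcrh fell in MCAD-/- (-0.22, limma adjusted p = 0.0267 over probe sets) and did not pass in wild type (-0.16).

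Cytochrome c oxidase, complex IV, had the smallest median difference of the 5 complexes in both genotypes, and several of its members come in tissue isoforms. Cox4i1, the common form of the largest nuclear-encoded subunit, had 4962 to 5457 units in MCAD-/- mice with LPS against 5999 to 6503 with vehicle (-0.27), and 5209 to 5394 against 5339 to 6223 in wild type (-0.17). Its lung isoform Cox4i2 was under 5 units on every array. Cox5a ran from 4269 to 5036 units in MCAD-/- mice with LPS against 4605 to 6984 with vehicle (-0.32, limma adjusted p = 0.022). In wild type Cox5a had 4450 to 5270 units against 4298 to 6289 and did not pass (-0.19, adjusted p = 0.158). The 4298 was vehicle replicate 3, and without the 2 arrays of high actin ratio Cox5a fell in wild type (-0.31, limma adjusted p = 0.019). With all arrays a dimmer probe set of Cox5a fell in wild type (-0.28, limma adjusted p = 0.0329 over probe sets). The dimmest did not pass there (-0.22, adjusted p = 0.0849). Cox8a, the common form of the smallest subunit (chromosome 19), moved most of the liver isoforms. It had 357, 358, 282, 393 and 348 units in MCAD-/- mice with LPS against 435, 551, 563, 569 and 595 with vehicle, and wild type mice had 421, 433, 297, 287 and 392 against 598, 557, 557, 528 and 586. The groups were separate in both genotypes, and the level was 1.56-fold lower in MCAD-/- and 1.57-fold lower in wild type (limma adjusted p = 0.000176 and 0.000172). The muscle isoforms Cox8b, Cox6a2 and Cox7a1 and the testis isoform Cox8c were under the floor except on the arrays that carried other tissue, where Cox7a1 read 20.4 units (wild type LPS replicate 2) and Cox8b 28.5 (wild type LPS replicate 5).

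The remaining isoform families were mixed. Cox6b1, the common form of the subunit that bridges the dimer, fell in both genotypes, with 5404 to 5819 units in MCAD-/- mice with LPS against 6988 to 7596 with vehicle, and 5571 to 6380 against 6553 to 8485 in wild type (-0.38 and -0.31). Cox6a1, the liver form of an accessory subunit, had 6166 to 6980 units against 6781 to 7746 in MCAD-/- (-0.17, limma adjusted p = 0.0515) and 6160 to 7037 against 5698 to 6229 in wild type (0.13, adjusted p = 0.138). Cox7a2, the liver form, did not pass in MCAD-/-, with 4927 to 6306 units against 6115 to 6611 (-0.19, limma adjusted p = 0.0774), and fell in wild type, with 4473 to 5324 against 5837 to 7608 (-0.35, adjusted p = 0.0024). A dimmer probe set of Cox7a2 fell in MCAD-/- (-0.23, limma adjusted p = 0.0388 over probe sets) and in wild type (-0.37). Its relative Cox7a2l, which joins complexes III and IV into supercomplexes, rose in wild type and was the only tested member besides Ndufb1 to do so. It had 1122, 1114, 1167, 891 and 1078 units in MCAD-/- mice with LPS against 952, 909, 813, 907 and 975 with vehicle (0.23 ± 0.12, limma adjusted p = 0.097). Wild type mice had 1150, 1140, 1162, 1757 and 1092 units against 897, 759, 892, 763 and 724 (0.63 ± 0.12, adjusted p = 0.000172). The MCAD-/- groups overlapped and the wild type groups were separate, and the interaction did not pass (-0.39, adjusted p = 0.211). Wild type LPS replicate 4 was far above its group, and without it the wild type difference was 0.50 (adjusted p = 0.000209). All 3 probe sets of Cox7a2l were higher in wild type, by 0.41 to 0.63.

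In complex V, the ATP synthase, 13 of 17 members fell in each genotype, against 27.6% of all tested genes in MCAD-/- and 24.0% in wild type. Those of the catalytic head and the central stalk were among the members that fell. Atp5c1, the gamma subunit of the central stalk (chromosome 2), had 3271, 3065, 2946, 3313 and 2880 units in MCAD-/- mice with LPS against 4457, 4942, 4776, 4852 and 5087 with vehicle. Wild type mice had 3627, 3552, 3056, 2951 and 3304 against 4977, 5016, 5822, 5216 and 5085. Both differences left a wide gap between the groups, -0.64 ± 0.08 (limma adjusted p = 1.75e-06) in MCAD-/- and -0.67 ± 0.08 (adjusted p = 1.15e-06) in wild type. Atp5o, which ties the peripheral stalk to the head, changed by -0.62 and -0.60, with medians of 1189 units against 1885 in MCAD-/- and 1158 against 1811 in wild type. Atp5d, the delta subunit, had a median of 1431 units against 2183 in MCAD-/- (-0.68) and 1641 against 2239 in wild type (-0.39). Catalytic Atp5b had 2312 to 2570 units against 2631 to 3812 in MCAD-/- and 2285 to 2782 against 3194 to 3645 in wild type (-0.49 and -0.39). Its partner Atp5a1 had 2706 to 2936 against 3280 to 4193 and 2554 to 3080 against 3543 to 3937 (-0.48 and -0.45). The 3 genes for the c subunit of the ring encode 1 mature protein. Atp5g1 had 1193 to 1739 units against 1556 to 1766 in MCAD-/- and 1465 to 1926 against 1514 to 1678 in wild type, and Atp5g2 1077 to 1288 against 1177 to 1463 and 1011 to 1464 against 1093 to 1414. Neither passed in either genotype (differences of -0.15 and 0.05 for Atp5g1, -0.14 and -0.12 for Atp5g2). Atp5g3 fell in MCAD-/- (5578 to 5831 units against 6205 to 6888, -0.22, adjusted p = 0.015), with 5652 to 6124 against 5557 to 6716 in wild type (-0.09, adjusted p = 0.293), and its interaction of -0.12 did not pass (adjusted p = 0.546). Of 10 core catalytic or structural subunits set out as a list across the complexes, 10 fell in MCAD-/- and 8 in wild type. Of all tested genes 27.6% and 24.0% fell. The exceptions in wild type were Uqcrc1 and Cox5a. Both of these fell in wild type without the 2 arrays of high actin ratio. Other calls of the list were lost in some alternatives. In wild type these were Cox4i1 (11 of 22), Ndufv1 (2 of 22) and Sdha (1 of 22), and in MCAD-/- Cox5a (3 of 21).

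**Figure D3:**
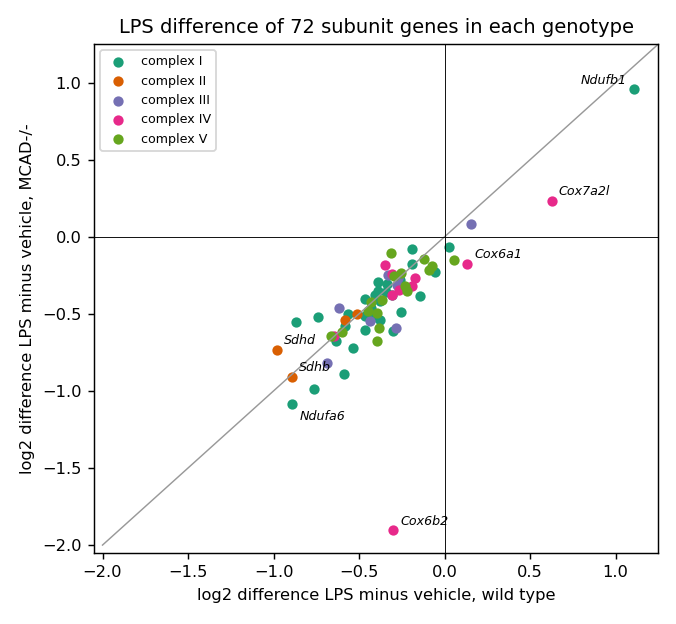
Log2 difference with LPS of the 72 tested subunit genes, in MCAD-/- (y axis) and in wild type (x axis), coloured by complex, with the line of equal difference. Most points lie in the lower left near the line, Ndufb1 is at 0.96 in MCAD-/- and 1.10 in wild type, and Cox6b2 is at -1.91 in MCAD-/- and -0.30 in wild type.

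The log2 differences with LPS of the genotypes share no arrays, and the outcomes in the genotypes were close. The calls are not independent in this way, since the spread of each gene was estimated from the arrays of both genotypes together. Of the subunits that fell, 53 did so in both genotypes, which is 88.3% of those of MCAD-/- and 96.4% of those of wild type. Over all tested genes these shares were 74.2% and 85.4%. The 2 sets of shares are not directly comparable, since falls were far more common among the subunits. In MCAD-/- 83.3% of subunits and 27.6% of all tested genes fell, and in wild type 76.4% and 24.0%. Ndufb1 rose in both, none moved in opposite directions and 8 passed in neither. Across the 72 members the differences correlated with Pearson's r = 0.75 and Spearman's rho = 0.81, and with r = 0.90 when Cox6b2 was left out, against r = 0.90 across all 8774 tested genes. These are correlations across genes, which are not independent replicates. In the test of the interaction, the LPS response of MCAD-/- minus that of wild type, 1 subunit passed as lower (2.76% of all tested genes did) and 0 as higher (1.36%) in limma. The gene was Cox6b2, described further on, which was under the floor in wild type, so its response there could not be read. At an unadjusted p under 0.05 the counts were 4 lower and 0 higher. The median 95% interval reached 0.28 to either side of the interaction estimate, so that differences of this size in response were not resolved. Of the 72 intervals 55 lay within 0.5 of 0.

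The second question was how the MCAD-/- liver differed from wild type after the same injection. With vehicle 4 subunits were higher in MCAD-/- (9.81% of all tested genes were) and 0 lower in limma (6.39%). At an unadjusted p under 0.05 there were 6 higher and 5 lower. With LPS 3 were higher (8.75% of all tested genes) and 1 lower (11.8%). The vehicle medians for complexes I to V were -0.02, -0.10, -0.02, 0.09 and -0.01, and with LPS they were -0.03, -0.07, -0.03, -0.02 and -0.06. The median 95% interval spanned 0.20 to either side of an estimate, and 66 of 72 intervals with LPS and 69 of 72 with vehicle lay within 0.5 of 0. A difference under that size in a single subunit could have gone unseen. When arrays were weighted by quality the vehicle counts were 8 higher and 5 lower. The calls over all 8774 tested genes also grew, to 1695 higher and 1160 lower from 861 and 561. Without the 2 arrays of high actin ratio the vehicle counts were 5 and 0, against 939 and 573 of all tested genes. With LPS the counts were 2 higher and 3 lower without those arrays, against 840 and 1065. Without the 2 arrays with muscle or fat transcripts they were 3 higher and 0 lower, against 568 and 699. In the same MCAD-/- mice with vehicle, markers of other liver cells were brighter: 4 of 5 tested endothelial markers, 4 of 5 Kupffer cell markers and 3 of 5 stellate cell markers were higher. Their summed levels were 1189 to 1633 against 382 to 798 units in wild type for endothelium, 1197 to 1632 against 603 to 1118 for Kupffer cells and 1897 to 2191 against 1050 to 1836 for stellate cells. With LPS 0 of these 15 tested markers were higher and 3 were lower. Their part in the subunit values was not tested.

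**Figure D4:**
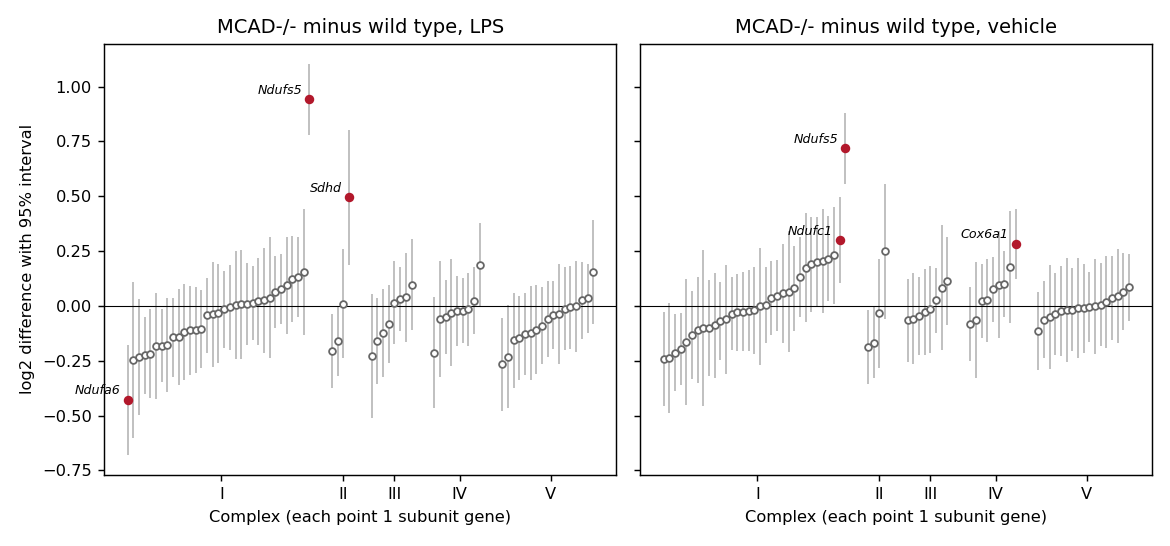
Log2 difference MCAD-/- minus wild type of each tested subunit gene except Cox6b2, ordered within its complex, with LPS (left) and with vehicle (right); lines are 95% intervals and red points passed an adjusted p of 0.05. Most intervals cross 0, and Ndufs5 lies highest in both panels, at 0.94 and 0.72.

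Cox6b2, the testis form of the subunit that Cox6b1 provides elsewhere (chromosome 7), was detected in MCAD-/- livers and not in wild type. It had 130, 56.7, 76.8, 94.0 and 93.0 units in MCAD-/- mice with vehicle, while the wild type mice lay between 4.27 and 7.61, under the floor. With LPS it had 42.3, 12.9, 23.5, 43.0 and 12.2 units in MCAD-/- against 4.13 to 4.98 in wild type. All MCAD-/- mice were above all wild type mice under either injection, although 2 MCAD-/- mice with LPS were under the floor themselves. The fitted log2 differences were 3.99 ± 0.31 with vehicle (limma adjusted p = 1.06e-08) and 2.38 ± 0.31 with LPS (adjusted p = 1.44e-05). Set against the floor the vehicle difference is a bound, at least 5.43-fold. With LPS no bound could be set, as 2 of the MCAD-/- mice were under the floor. Cox6b2 was tested only because of its MCAD-/- arrays, and it rests on 1 probe set. LPS lowered it in MCAD-/- (adjusted p = 2.43e-05). The fitted size, 3.75-fold, includes the 2 mice under the floor. Cox6b2 is also the member that passed the interaction (-1.60 ± 0.44, adjusted p = 0.0433). As wild type was under the floor with either injection, its own response could not be read, and the interaction was lost in 20 of 30 alternatives, among them median centring, quantile normalization, no filter and those without either pair of arrays, with an adjusted p of 0.00912 to 0.0944 over all 30. Cox6b1 did not differ between genotypes beyond the spread (0.02 with vehicle, 95% interval -0.15 to 0.19, and -0.05 with LPS, -0.22 to 0.12).

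Ndufs5, an accessory subunit of complex I on the intermembrane side (chromosome 4), was the other gene to differ under both injections. It had 451, 457, 450, 478 and 468 units in MCAD-/- mice with LPS against 257, 259, 237, 221 and 228 in wild type. With vehicle it had 653, 720, 656, 647 and 627 units in MCAD-/- against 377, 375, 425, 424 and 407 in wild type. The genotypes were separate each time, by 1.92-fold with LPS (0.94 ± 0.08, limma adjusted p = 2.24e-08) and by 1.65-fold with vehicle (0.72 ± 0.08, adjusted p = 1.16e-06). LPS lowered Ndufs5 in both genotypes (-0.52 in MCAD-/- and -0.74 in wild type) and the interaction did not pass (0.22, adjusted p = 0.265). It had 1 probe set with a single symbol.

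**Figure D5:**
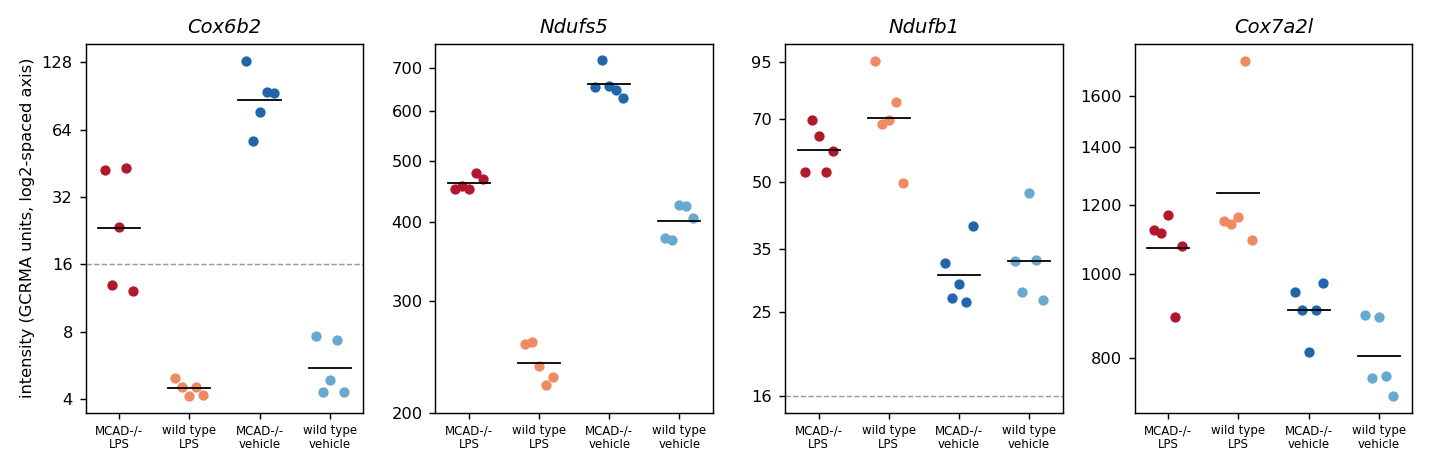
Intensity of Cox6b2, Ndufs5, Ndufb1 and Cox7a2l in each mouse on log2-spaced axes, with the geometric mean of each group as a bar and the 16-unit floor as a dashed line where it falls in the panel. Cox6b2 and Ndufs5 separate MCAD-/- from wild type under both injections, Ndufb1 separates LPS from vehicle, and 1 wild type LPS mouse at 1757 units stands out for Cox7a2l.

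The remaining genotype calls were small. Cox6a1 was higher in MCAD-/- with vehicle, at 6781, 7746, 7644, 6805 and 7626 units against 6070, 5975, 5698, 6229 and 6064 in wild type (0.28 ± 0.08, limma adjusted p = 0.0146). The groups did not overlap, and a further Cox6a1 probe set was 0.33 higher. Ndufc1, an accessory subunit of complex I, had 1900, 1647, 1772, 1923 and 2131 units in MCAD-/- with vehicle against 1508, 1525, 1691, 1456 and 1418 (0.30 ± 0.09, adjusted p = 0.0343). These groups overlapped, and a dimmer probe set of the gene did not pass (0.13, adjusted p = 0.606 over probe sets). The Ndufc1 call was lost in 10 of 21 alternatives, among them the mean of probe sets, median centring and the compared groups alone (limma adjusted p up to 0.192). Sdhd was higher in MCAD-/- with LPS (0.49 ± 0.15, adjusted p = 0.0219), with overlapping groups, and did not pass without wild type LPS replicate 4 (0.41, adjusted p = 0.0598). A dimmer probe set of Sdhd did not pass (0.20, limma adjusted p = 0.292 over probe sets). Ndufa6 was lower in MCAD-/- with LPS (-0.43 ± 0.12, adjusted p = 0.016), also with overlap, and did not pass without the 2 arrays with muscle or fat transcripts (-0.37, adjusted p = 0.0977). With LPS, dimmer probe sets passed for Cox7a2 (0.33, limma adjusted p = 0.0188 over probe sets) and Uqcr10 (-0.50, adjusted p = 0.0178). The brightest probe sets of those genes did not pass. Sdhb and Sdha were lower in every MCAD-/- mouse with vehicle than in any wild type mouse, with log2 differences of -0.19 and -0.17, without passing the test (adjusted p = 0.122 and 0.154). In this direction the groups were separate in 2 members, against 6.11% of all tested genes.

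Most further probe sets of the members fell too. Of the members' 132 tested probe sets, which include the brightest of each tested gene, 111 fell with LPS in MCAD-/- and 100 in wild type. Over all 14162 tested probe sets 3749 fell in MCAD-/- and 3494 in wild type. No member had probe sets called in opposite directions in any comparison. Among the 81 brightest probe sets, 13 were of the s_at and 4 of the x_at type, which can bind more than 1 transcript. Another 9 probe sets that name a member together with other genes were not used. The 9 untested members were Ndufa4l2, Ndufb4, Cox4i2, Cox6a2, Cox7a1, Cox7b2, Cox7c, Cox8b and Cox8c. For Ndufb4 and Cox7c, which liver is known to use, the probe sets read 2.06 to 3.28 and 6.23 to 15.8 units, so these probe sets were not well above background and give no level for the gene. Ndufa4 is counted with complex I by its symbol, although it is now known as a subunit of complex IV.

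Assembly factors, which help build the complexes without being part of them, were split. Of 44 tested assembly factors 10 rose and 11 fell with LPS in MCAD-/-, and 8 rose and 13 fell in wild type, with median log2 differences of -0.08 and -0.05. Over all tested genes 38.1% rose and 27.6% fell in MCAD-/-, and 40.0% rose and 24.0% fell in wild type. Cox18, which inserts a core subunit of complex IV into the membrane, rose in both (1.16 in MCAD-/-, 123 to 152 units against 50.9 to 75.5, and 1.35 in wild type, 290 to 388 against 75.6 to 162). Ttc19, which keeps complex III in working order, rose by 0.80 in MCAD-/- and 1.33 in wild type. Copper carrier Sco2 fell by 1.38 on the log2 scale and Uqcc3, a complex III factor, by 1.13 in MCAD-/-. In wild type Ndufaf6, a complex I factor, fell by 1.16 and Acad9, an acyl-CoA dehydrogenase relative that helps build complex I, by 0.78. Foxred1 (complex I) and Lrpprc (mitochondrial mRNA stability) passed the interaction, at 0.68 and 0.69. Lrpprc rose with LPS in MCAD-/- (0.41) and fell in wild type (-0.28), and Foxred1 rose in MCAD-/- (0.62) and did not pass in wild type (-0.06).

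Between genotypes the assembly factors gave 2 higher and 7 lower in MCAD-/- with LPS, and 1 higher and 6 lower with vehicle. Over all tested genes 8.75% were higher and 11.8% lower with LPS, and 9.81% higher and 6.39% lower with vehicle. Cox18 was lower in MCAD-/- both times, with 123 to 152 units against 290 to 388 with LPS (-1.34) and 50.9 to 75.5 against 75.6 to 162 with vehicle (-1.14). Acad9 was lower too, by 0.69 on the log2 scale with LPS and 1.20 with vehicle, where it had 43.8 to 76.9 units against 116 to 143. Bcs1l, which inserts the Rieske protein into complex III, was 0.79 lower with LPS. Lrpprc and Foxred1 were higher with LPS (0.58 and 0.68), and Sco2 was higher with vehicle (0.55).

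Of 19 tested genes of ubiquinone, cytochrome c and electron entry, 10 fell and 2 rose in MCAD-/- (27.6% and 38.1% of all tested genes did), and 11 fell and 2 rose in wild type (24.0% and 40.0%). The ubiquinone biosynthesis kinase relatives Coq8a and Coq8b were called in opposite directions. Coq8a had 16.8 to 69.4 units in MCAD-/- mice with LPS against 220 to 511 with vehicle, and 18.4 to 37.2 against 306 to 415 in wild type (-3.83 and -3.64). Coq8b had 461 to 818 units against 16.6 to 40.7 in MCAD-/- (4.56), and 465 to 844 against 5.85 to 28.3 in wild type (5.11). Its wild type vehicle values reached under the floor, so the sizes of these rises could not be compared. Coq10b, a ubiquinone-binding protein, fell by 2.37 on the log2 scale in MCAD-/- and by 1.99 in wild type. Coq4 rose in MCAD-/- (0.78) and Coq2 in wild type (0.22). Between genotypes, the methyltransferase Coq3 was lower in MCAD-/- with LPS (-0.78) and with vehicle (-0.73). The methyltransferase Coq5 was lower too (-0.56 and -0.45), and Coq4 was lower with vehicle (-0.79). Pdss2, which builds the ubiquinone tail, was higher both times (0.69 with LPS and 0.43 with vehicle), Sqor was higher with LPS (0.42) and Coq10a with vehicle (0.65). No gene of the 19 passed the interaction in limma.

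Regulators of mitochondrial biogenesis fell in 8 and rose in 4 of 16 tested genes with LPS, in each genotype, against 27.6% lower and 38.1% higher over all tested genes in MCAD-/- and 24.0% and 40.0% in wild type. The coactivator Ppargc1b had 11.2 to 19.9 units in MCAD-/- mice with LPS against 107 to 269 with vehicle, and 12.3 to 23.4 against 59.3 to 98.9 in wild type. It fell in both, but its LPS values lay around the floor, under it in 4 of 5 MCAD-/- mice and 1 of 5 wild type mice, so the size of the falls could not be compared. With vehicle it was higher in MCAD-/- (1.18). Its relative Ppargc1a was higher in MCAD-/- under both injections, with 73.7 to 98.5 units against 8.01 to 39.3 with LPS (1.83) and 90.6 to 239 against 35.7 to 54.2 with vehicle (1.75). The wild type LPS values of Ppargc1a reached under the floor, so the size with LPS is not exact. Polg2, the accessory subunit of the mitochondrial DNA polymerase, had 5.21 to 13.9 units in MCAD-/- mice with LPS against 52.9 to 95.7 with vehicle, and 9.26 to 13.3 against 64.1 to 86.6 in wild type, so that every LPS mouse was under the floor. Pprc1, a coactivator of the same family, rose by 0.71 in MCAD-/- and 0.98 in wild type, and Tfb1m, a mitochondrial rRNA methyltransferase, by 0.47 and 0.43. The transcription factor Tfb2m was higher in MCAD-/- with LPS (0.60). Of subunits and partners named outside the symbol rule, Cyc1, cytochrome c1 of complex III, fell by 0.71 on the log2 scale in MCAD-/- and 0.54 in wild type, the proton-driven transhydrogenase Nnt by 1.04 and 1.00, and the ATP synthase coupling factor gene Dmac2l rose by 0.61 and 0.70. Of these 7 tested genes, 4 fell and 1 rose in MCAD-/-, and 3 fell and 1 rose in wild type, and none passed between genotypes in limma. Of the subunits read from mitochondrial DNA, ND5 was on the array, with 1985 to 3628 units in MCAD-/- mice with LPS against 2848 to 3984 with vehicle (-0.40, limma adjusted p = 0.0696), and 1301 to 2861 against 3076 to 3756 in wild type (-0.74, adjusted p = 0.00207).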

How the data were processed

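The deposited table holds 45101 probe sets for 20 arrays as intensity on a linear scale, made by the authors with GCRMA per the submitters' processing notes. The GCRMA version is not given here. The deposited arrays did not share 1 distribution (30.2% to 32.3% of probe sets were over 16 units), and differences are relative to the authors' scaling. Values were taken to log2 with no pseudocount. Probe sets were named by the platform annotation, 34945 with 1 gene symbol and 932 with several, which were not used, and 64 controls were left out. All 81 members matched RefSeq by gene ID (GRCm38.p6), the source of chromosomes and promoters. A linear model with 4 groups was fitted on all genes over 16 units on at least 5 arrays with limma 3.58.1 in R 4.3.3, empirical Bayes moderation and Benjamini-Hochberg adjustment over 8774 genes, and tested on simulated data. The same test served every adjusted p. The series description names the mice biological replicates, and no arrays were identical.

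The members and lists were chosen with earlier results of these data known, so no p is given for a complex or a list. Values per mouse are given for the 2 largest called rises and falls per comparison and complex, the core subunits, the isoform families and Acadm, and of other lists the 2 largest called rises and falls. Further genes (Sdhc, Ndufs7, Ndufs8, Foxred1 and those under the interaction) were named after their values were seen. Alternatives were the replicate number as a block, filters, other probe set rules, scalings, priors, weights, subsets of arrays and each mouse left out in turn.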

Additional observations from a re-analysis of the deposited data

Results flagged for a closer look

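Single mice stood apart from the other 4 of their group in 24 of 288 checks, by the gap to the nearest mouse divided by the group's range. Each check took 1 member in 1 group, and groups with every mouse under the floor were left out. Chance alone gives about 1 in 20. Of the 24, 21 came from the 2 wild type arrays with high actin 3' to 5' ratios. In wild type vehicle replicate 3 the highest of the group were Ndufa2 (1852 units), Ndufa5 (2852), Ndufb11 (5292), Ndufb2 (1395), Ndufs8 (2501), Uqcr10 (1755), Uqcrq (3280), Cox7a2 (7608) and Atp5j2 (5578). The lowest there were Ndufb10 (1345), Ndufs7 (1220), Uqcrc1 (875), Cox4i1 (5339), Cox5a (4298) and Atp5g2 (1093). In wild type LPS replicate 4 Ndufa13 (2415 units), Ndufa2 (2135), Ndufa5 (2090), Ndufb11 (3739) and Cox7a2l (1757) were the highest and Uqcrfs1 (1309) the lowest. The remaining 3 were low values in MCAD-/- mice with vehicle: Ndufb10 (1788 units) and Atp5a1 (3280) in replicate 3, and Cox8a (435) in replicate 1. The mean log2 level of complex I in MCAD-/- LPS replicate 4 was 10.31, above the rest of its group. Cox6b2 passed the interaction, at -1.60 on the log2 scale. Wild type was under the floor throughout, so a difference in response between genotypes could not be read.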

How the results depend on the processing

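No called subunit changed direction in any alternative. Counts of alternatives per gene leave out the 1.5-fold minimum, and Cox6b2 was not tested with the 64-unit filter. Calls that held in all remaining alternatives were 46 of 61 for LPS in MCAD-/- and 37 of 57 for LPS in wild type. They were 2 of 4 for genotype with LPS, 3 of 4 for genotype with vehicle and 0 of 1 for the interaction. For LPS in MCAD-/-, centring arrays on the median gave complex medians of -0.55 (I), -0.48 (III), -0.39 (IV) and -0.44 (V), quantile normalization -0.34 (I), -0.28 (III) and -0.23 (V), and each probe set on its own -0.50 (II), -0.32 (III) and -0.45 (V). For LPS in wild type, centring gave -0.55, -0.89, -0.46, -0.44 and -0.47 for I to V, quantile normalization -0.26 (I), -0.24 (III), -0.15 (IV) and -0.20 (V), the mean of probe sets -0.35 (III), -0.20 (IV) and -0.38 (V), each probe set -0.58 (II) and -0.38 (V), and no filter -0.19 (IV). With a 1.5-fold minimum 17 fell in MCAD-/- and 13 in wild type. Subunits higher with LPS were 2 in MCAD-/- under quantile normalization, array weights and without the 2 arrays of high actin ratio, and 4 in wild type under quantile normalization. As both high-actin arrays were wild type, leaving them out changed no MCAD-/- difference with LPS, only the shared spread. For genotype with LPS, subunits lower were 0 in a fit of the compared groups alone, with the 1.5-fold minimum and without the arrays with muscle or fat transcripts, 2 with the 64-unit filter and the mean of probe sets, 3 with array weights and without the high-actin arrays, and 4 with a trended robust prior; each probe set gave a complex I median of -0.10. For genotype with vehicle, 2 were higher with the 1.5-fold minimum and 8 with array weights, and lower were 1 after centring or with the trended prior and 5 with array weights. Array weights called 1695 of all tested genes higher there and 1160 lower. The complex I median was 0.035 without the high-actin arrays. Interaction calls were 0 with no filter, the 64-unit filter, each probe set, centring, and without either pair of arrays, and 2 with the trended prior; after centring its medians were 0.022 (I), 0.0054 (III) and 0.020 (V). Why these values moved was not tested. Leaving out 1 mouse at a time gave 1 to 2 higher with LPS in MCAD-/-, wild type LPS medians of -0.35 to -0.29 (III) and -0.37 to -0.26 (V), 0 to 3 lower for genotype with LPS, 0 to 1 lower and a complex I median of -0.037 to 0.035 for genotype with vehicle, and 0 to 1 lower and a complex III median of -0.11 to -0.029 for the interaction. With the replicate number as a block 60 fell with LPS in MCAD-/- and 53 in wild type, and the other counts were as without it; same-numbered mice shared only a number (correlations of their deviations -0.12 to 0.28).

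The number of mice limits the precision: a 95% interval reached 0.20 to either side of a typical group difference on the log2 scale and 0.28 for the interaction. Levels under 16 units carry no order, and bulk liver mixes cell types. Other probe set rules test fewer genes or more features, so their counts differ in part by construction.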
